A study of Mus musculus with 14 samples.

Results

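The genes described here are 38 genes of DNA replication and mitosis, taken by symbol from a fixed list of S phase and G2/M phase genes, out of 38553 gene identifiers in each file. All 38 were found. They fall into 14 S phase genes (10 of origin licensing and replication and 4 of nucleotide supply), 23 genes of G2 and mitosis including the transcription factor gene Foxm1, and E2f1, which encodes an activator of S phase genes. They were measured by poly(A) RNA sequencing in adipocytes of male C57BL/6 mice, floated off collagenase digests of epididymal fat (a visceral white depot), inguinal fat (a subcutaneous white depot) and interscapular brown fat. From weaning at 3 weeks of age, mice received regular chow (normal diet) or the high-fat diet D12492 for 16 weeks. The 4 white groups, epididymal and inguinal on each diet, had 3 libraries each, numbered 0, 1 and 2 in the sample titles. Brown adipocytes had 1 library per diet, so brown values have no replicate and no test. Each library pooled the tissue of 3 to 5 mice. The labels describe filtering, spinning and flotation and no sorting, so the material is a floating layer and not a sorted cell type.

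Mature fat cells are post-mitotic, and in adipose tissue most dividing cells are progenitors, endothelial cells and immune cells; macrophages of obese visceral fat are known to divide locally. In a dividing cell, cyclin D kinases release the activator E2F proteins from the retinoblastoma protein, and E2F then drives the genes that load helicases onto origins, make deoxynucleotides and copy DNA. Later, the MuvB complex with B-Myb and FOXM1 drives the mitotic genes, whose promoters often carry CCAAT boxes bound by NF-Y and a short element called the CHR. In quiescent cells the same MuvB core joins the DREAM complex, which holds both gene sets down. The transcripts of the mitotic genes are therefore low in resting tissue and are widely used as marks of dividing cells.

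Values are FPKM, fragments scaled for gene length and library total, as deposited. The 4 white groups were fitted together with limma as log2(FPKM + 0.5), p-values were adjusted over 14959 genes by the Benjamini-Hochberg method, and a gene was called at an adjusted p under 0.05. On this scale the change of genes near or under 0.5 FPKM is understated. The labels call the white samples biological triplicates. All 38 genes passed the expression filter of at least 0.5 FPKM in 3 white libraries. Cenpe did so only through the 3 epididymal high-fat libraries. Kif20a needed that group as well, since it otherwise reached 0.5 FPKM only in inguinal high-fat replicate 1 (0.786) and inguinal normal-diet replicate 2 (0.585).

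Several features of the libraries touch the results below. The adipocyte genes Adipoq and Plin1 were high in all 14 libraries: Adipoq ranged from 919 to 2536 FPKM and Plin1 from 297 to 909 FPKM. Inguinal normal-diet replicates 0 and 2 stood apart, with summed FPKM over 10 B cell markers of 593 and 607 against 67.5 in replicate 1 and 5.90 to 13 in the inguinal high-fat libraries. Epididymal normal-diet replicate 2 held transcript of an epididymis gene (38.3 FPKM of Crisp1, against at most 1.37 in any other library, with the other 4 epididymis markers at 0) and of male germ cells (150 FPKM over 5 markers, against at most 38). Mitochondrial mRNAs made up 20.6% to 82.5% of the summed FPKM of protein-coding genes over the 14 libraries. In bulk values of this kind, fewer cells of a type and less RNA per cell cannot be told apart.

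On the deposited scale, epididymal adipocytes on the high-fat diet held the most transcript of these genes. Their summed FPKM over the 38 genes was 256, 308 and 204 in replicates 0, 1 and 2. On the normal diet it was 62.8, 86.2 and 90.0 in epididymal adipocytes, and in inguinal adipocytes it was 118, 76.9 and 182 on the normal diet and 89.0, 114 and 89.8 on the high-fat diet. The 3 epididymal high-fat sums lay above all 9 other white sums. In brown adipocytes it was 35.1 FPKM on the normal diet, the lowest of the 14 libraries, and 72.5 FPKM on the high-fat diet. Of the 38 genes, 33 had their highest group mean in epididymal high-fat adipocytes and 28 had their lowest in epididymal normal-diet adipocytes. With each library scaled to its nuclear genes, a sum ruled by a few short features, the order turned: the mean sum was 203 FPKM in epididymal high-fat, 284 in inguinal high-fat, 253 in inguinal normal-diet and 60.7 in epididymal normal-diet adipocytes, and the normal-diet brown library, at 97.5, was no longer the lowest. On the deposited scale, the median of the 38 group means was 5.21 FPKM in epididymal high-fat, 1.99 in inguinal normal-diet, 1.85 in inguinal high-fat and 1.07 in epididymal normal-diet adipocytes. The middle 2 of these did not differ beyond their spread, since the inguinal normal-diet sums span the inguinal high-fat ones.

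The balance between the phases also differed between groups. The 23 G2 and mitosis genes made up 37.3%, 39.8% and 37.7% of the summed FPKM in the epididymal high-fat libraries and 20.3%, 22.3% and 21.8% in the epididymal normal-diet ones. The 2 groups did not overlap. In inguinal adipocytes the share was 30.9%, 35.4% and 37.0% on the high-fat diet and 25.2%, 19.1% and 36.5% on the normal diet, where the groups overlapped. The share in brown adipocytes was 27.9% on the high-fat diet and 17.0% on the normal diet. Pcna was the highest gene in each library except epididymal normal-diet replicate 2 and normal-diet brown, where Mcm7 was higher. It held 55.4, 59.8 and 42.0 FPKM in the epididymal high-fat libraries, but only 13.1 of 114 FPKM in inguinal high-fat replicate 1. S phase genes held most of every sum, so the mitotic genes are better read one by one.

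**Figure D1:**
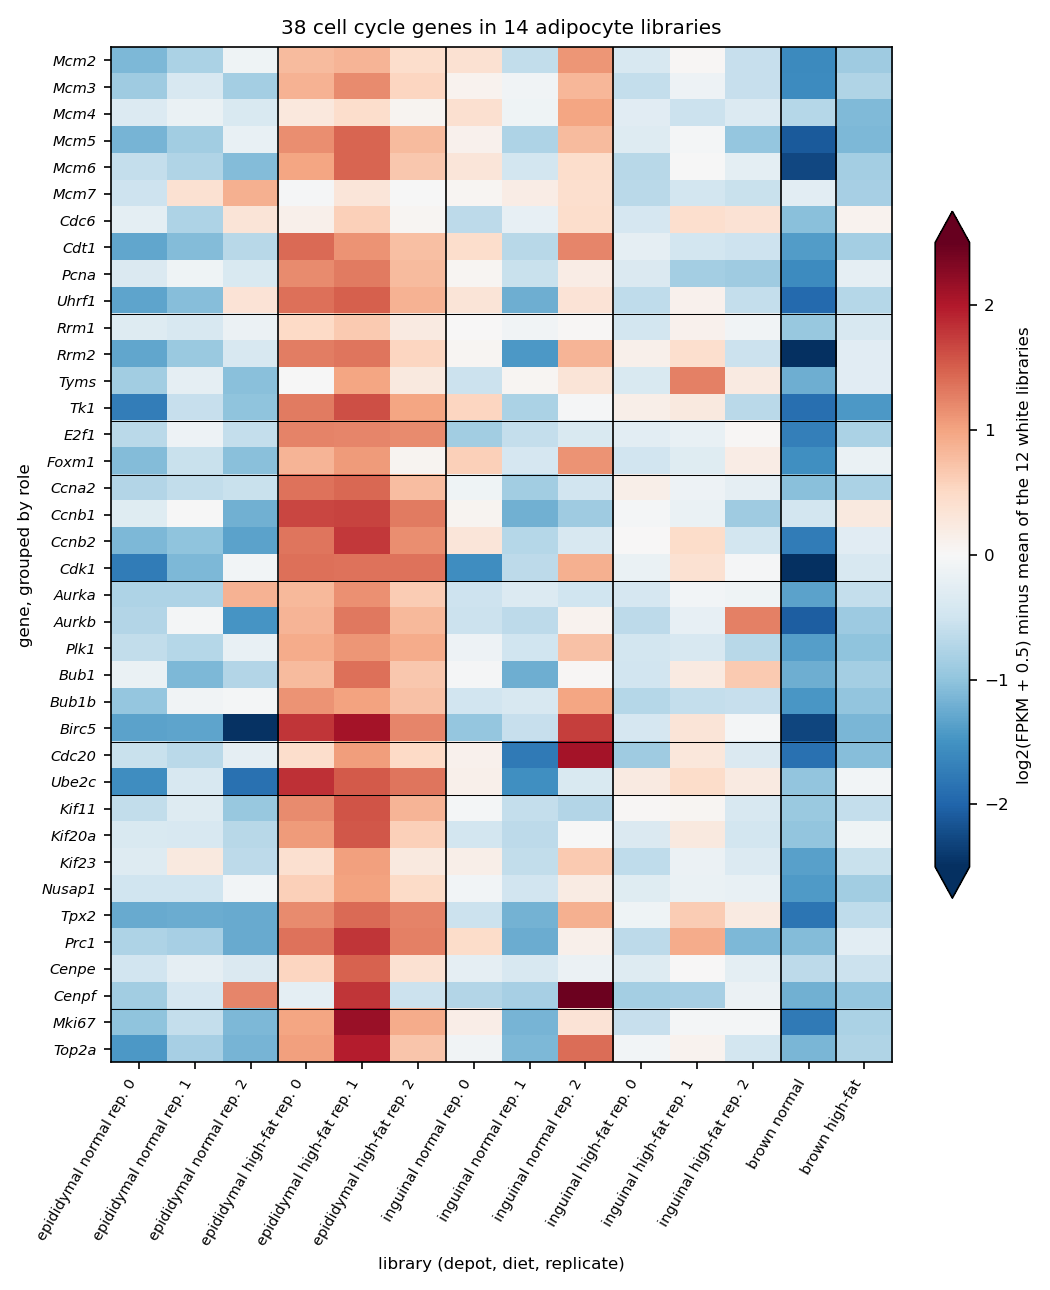
Each row is 1 of the 38 genes, grouped by role from licensing genes at the top to Mki67 and Top2a at the bottom, and each column is 1 of the 14 libraries; colour is log2(FPKM + 0.5) minus the gene's mean over the 12 white libraries, capped at 2.5 either way. The epididymal high-fat columns are red for nearly all genes, inguinal normal-diet replicate 2 is red for many, and the normal-diet brown column is the bluest.

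In epididymal adipocytes 30 of the 38 genes were higher on the high-fat diet and none was lower. Among all 14959 genes tested, 12.2% were called higher and 7.35% lower in this comparison. The median log2 difference of the 38 genes was 1.64, against 0.07 for all genes. Among the 30 called genes the high-fat mean was 1.77 to 21.6 times the normal-diet mean, with a median of 5.45. The lowest high-fat value exceeded the highest normal-diet value for 34 of the 38 genes, a pattern found for 25.7% of all genes. By phase, 10 of 14 S phase genes and 19 of 23 G2 and mitosis genes were called, with median log2 differences of 1.47 and 1.74.

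Among the licensing and replication genes 7 of 10 rose. MCM2 to MCM7 form the helicase that is loaded onto origins, and 4 of these 6 genes were called; differences between the members were not tested. Mcm5 measured 8.17, 10.1 and 6.20 FPKM in epididymal high-fat replicates 0, 1 and 2, against 1.22, 1.62 and 2.90 on the normal diet (log2 difference 1.88 ± 0.40, SE, limma adjusted p = 0.0066). Mcm6 measured 12, 16.7 and 9.54 FPKM against 3.68, 3.24 and 2.48 (log2 1.85 ± 0.29, adjusted p = 0.000986), and Mcm3 measured 8.75, 11.1 and 6.90 against 2.23, 3.36 and 2.31 (log2 1.58 ± 0.28, adjusted p = 0.00213). In each of these 3 genes the groups were well apart. Mcm2 was called as well (log2 1.37 ± 0.40, adjusted p = 0.0301), but its call was lost without any 1 of 5 of the 6 epididymal libraries, at adjusted p up to 0.112.

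The other 2 helicase genes were not called. Mcm4 measured 6.17, 6.97 and 5.26 FPKM against 3.86, 4.46 and 3.73, groups that do not overlap but that differed by a log2 of only 0.55 ± 0.25 (adjusted p = 0.161). Mcm7 measured 10.3, 13.2 and 10.5 FPKM on the high-fat diet and 7.25, 14 and 20.0 on the normal diet, with the highest value in the normal-diet library that also held germ cell transcripts. Its log2 difference was -0.17 ± 0.29 (adjusted p = 0.759), and without that library it was 0.15. Mcm7 was the only 1 of the 38 genes with a negative epididymal difference.

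The loading factor and clamp genes gave some of the clearest differences. Cdt1, which brings the MCM helicase to origins, measured 7.83, 6.28 and 4.75 FPKM against 0.769, 0.974 and 1.42 (log2 2.12 ± 0.40, adjusted p = 0.00306). Pcna, the sliding clamp of DNA polymerases, measured 55.4, 59.8 and 42.0 FPKM against 18.7, 22.3 and 18.4 (log2 1.37 ± 0.23, adjusted p = 0.00141). Both genes kept a gap between the groups. Uhrf1, which carries DNA methylation through replication, was higher with a wider error (log2 1.94 ± 0.50, adjusted p = 0.0169), and normal-diet replicate 2 reached 2.52 FPKM against 0.457 and 0.641 in the other two. Cdc6, a loading ATPase, stayed low and overlapped, at 1.07, 1.66 and 0.988 FPKM against 0.712, 0.338 and 1.29 (log2 0.49 ± 0.38, adjusted p = 0.43).

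Of the 4 nucleotide genes 3 rose. Tk1, the S phase thymidine kinase, measured 11.2, 14 and 8.97 FPKM against 0.931, 2.69 and 1.88 (log2 2.40 ± 0.39, adjusted p = 0.00113). The 2 subunits of ribonucleotide reductase differed in size of change. Rrm2, the subunit made in S phase, went from 0.726, 1.10 and 1.80 FPKM to 6.81, 7.13 and 3.92 (log2 1.92 ± 0.51, adjusted p = 0.0188), and Rrm1, the longer-lived large subunit, from 4.20, 3.98 and 4.81 FPKM to 7.84, 8.74 and 6.37 (log2 0.75 ± 0.20, adjusted p = 0.0217). The difference between the 2 subunits was not tested. Tyms, thymidylate synthase, did not pass (log2 1.13 ± 0.42, adjusted p = 0.0826).

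Both transcription factor genes were called. E2f1 was nearly equal in the 3 high-fat libraries, with 8.62, 8.53 and 8.23 FPKM against 1.93, 3.06 and 2.08 on the normal diet (log2 1.67 ± 0.22, adjusted p = 0.000277). Foxm1, the activator of mitotic genes, measured 2.46, 2.94 and 1.21 FPKM against 0.272, 0.607 and 0.288 (log2 1.56 ± 0.41, adjusted p = 0.0182).

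All 4 genes of the cyclin A and B kinases rose. Cdk1, the mitotic kinase, measured 11, 10.9 and 10.9 FPKM on the high-fat diet against 0.812, 1.53 and 3.72 on the normal diet (log2 2.35 ± 0.54, adjusted p = 0.00912). The spread sits in the normal-diet group, where replicate 2 was highest. Ccnb2, a mitotic B-type cyclin, measured 3.76, 5.26 and 3.27 FPKM against 0.281, 0.341 and 0.172, a mean 15.5 times as high (log2 2.57 ± 0.33, adjusted p = 0.000255). Ccnb1 measured 3.14, 3.18 and 2.31 FPKM against 0.428, 0.637 and a value listed at 0 (log2 2.05 ± 0.41, adjusted p = 0.00439). Ccna2, the cyclin of S phase and G2, measured 6.58, 6.93 and 4.16 FPKM against 1.15, 1.30 and 1.38 (log2 1.82 ± 0.26, adjusted p = 0.000539). RefSeq lists pseudogene copies of Ccnb1, Ccnb2, Pcna and Tyms, and the sources used here do not say how shared reads were counted, so the values of these 4 genes are less certain than the rest.

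The mitotic kinase and checkpoint genes rose in 5 of 6 cases. The largest difference of all 38 was in Birc5, the survivin subunit of the chromosomal passenger complex, with 9.17, 11.3 and 5.96 FPKM on the high-fat diet against 0.602, 0.618 and a value listed at 0 on the normal diet (log2 3.41 ± 0.60, adjusted p = 0.00186). Its partner kinase gene Aurkb went from 0.751, 1.51 and 0.248 FPKM to 3.24, 4.71 and 3.12 (log2 1.74 ± 0.48, adjusted p = 0.025). Plk1, a kinase of mitotic entry, measured 1.96, 2.27 and 1.96 FPKM against 0.343, 0.284 and 0.634 (log2 1.49 ± 0.32, adjusted p = 0.00675). The checkpoint kinase genes Bub1 and Bub1b were called at log2 1.61 ± 0.43 and 1.32 ± 0.39 (adjusted p = 0.0199 and 0.0328). Aurka, the spindle pole kinase, was not called (log2 1.09 ± 0.39, adjusted p = 0.0724): the high-fat libraries held 3.07, 3.96 and 2.65 FPKM, and normal-diet replicates 0 and 1 held 0.691 and 0.687, but replicate 2 held 3.21.

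Of the 2 genes of the anaphase-promoting complex pathway, Ube2c, its ubiquitin-conjugating enzyme, measured 16.6, 13.4 and 11.7 FPKM against 1.13, 3.16 and 0.830 (log2 2.84 ± 0.43, adjusted p = 0.000688). It was the most abundant mitotic gene of the list in this group. Cdc20, the activator of the complex, did not pass (log2 1.15 ± 0.72, adjusted p = 0.31), although its groups of 1.99, 3.28 and 2.09 and of 0.752, 0.645 and 1.07 FPKM do not overlap; the error comes from the fit over all 4 white groups, and Cdc20 ranged from 0.0404 to 7.27 FPKM in inguinal normal-diet adipocytes.

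Of the 8 spindle and kinetochore genes 6 rose. Tpx2, an activator of Aurora A on the spindle, measured 3.83, 4.64 and 4.05 FPKM against 0.299, 0.311 and 0.299 (log2 2.54 ± 0.43, adjusted p = 0.00143). Prc1, which bundles the microtubules of the central spindle, measured 4.64, 6.42 and 4.28 FPKM against 0.672, 0.626 and 0.338 (log2 2.42 ± 0.52, adjusted p = 0.0068). Both were tight within each diet. The motor genes Kif11 and Kif20a and the genes Nusap1 and Cenpe were called at log2 1.83 ± 0.31, 1.56 ± 0.33, 1.04 ± 0.26 and 1.16 ± 0.32 (adjusted p = 0.00163, 0.00601, 0.0159 and 0.0242). Cenpe entered the test only through its epididymal high-fat values, and Kif20a needed them too, so neither call is independent of the expression filter. Kif23 was not called (log2 0.80 ± 0.37, adjusted p = 0.166). Cenpf, a large kinetochore protein, followed single libraries: 3.50 FPKM in high-fat replicate 1 and 2.21 in normal-diet replicate 2, against 0.132 to 0.482 in the other 4 (log2 0.36 ± 0.88, adjusted p = 0.837).

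The 2 chromosome genes rose. Mki67, which coats mitotic chromosomes and encodes the Ki-67 antigen, measured 2.98, 7.33 and 2.85 FPKM against 0.378, 0.671 and 0.309 (log2 2.26 ± 0.44, adjusted p = 0.00345). Top2a, which untangles sister chromatids, measured 6.98, 13.7 and 5.44 FPKM against 0.854, 1.55 and 1.14 (log2 2.37 ± 0.52, adjusted p = 0.00757). High-fat replicate 1 was the highest of the 3 for both, as for 33 of the 38 genes, and it was the highest of all 12 white libraries for 26.

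The 30 calls fell to 27 without normal-diet replicate 2, the library with Crisp1 and germ cell transcripts, to 20 without high-fat replicate 1, to 21 without normal-diet replicate 0 and to 22 without high-fat replicate 0, and 20 genes were called whichever single white library was left out. Those that were not were Mcm2, Uhrf1, Rrm1, Rrm2, Foxm1, Aurkb, Bub1, Bub1b, Nusap1 and Cenpe. Over all 14959 genes the calls higher fell too, from 1818 to 1429, 1167, 1214 and 1139 in the left-out fits named above, in that order. Scaling to nuclear genes left 10 calls among the 38 at a median log2 of 1.63, where 333 of all 15767 genes were called higher. Scaling to nuclear protein-coding genes left 28, where 1391 of all 15029 genes were called higher.

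**Figure D2:**
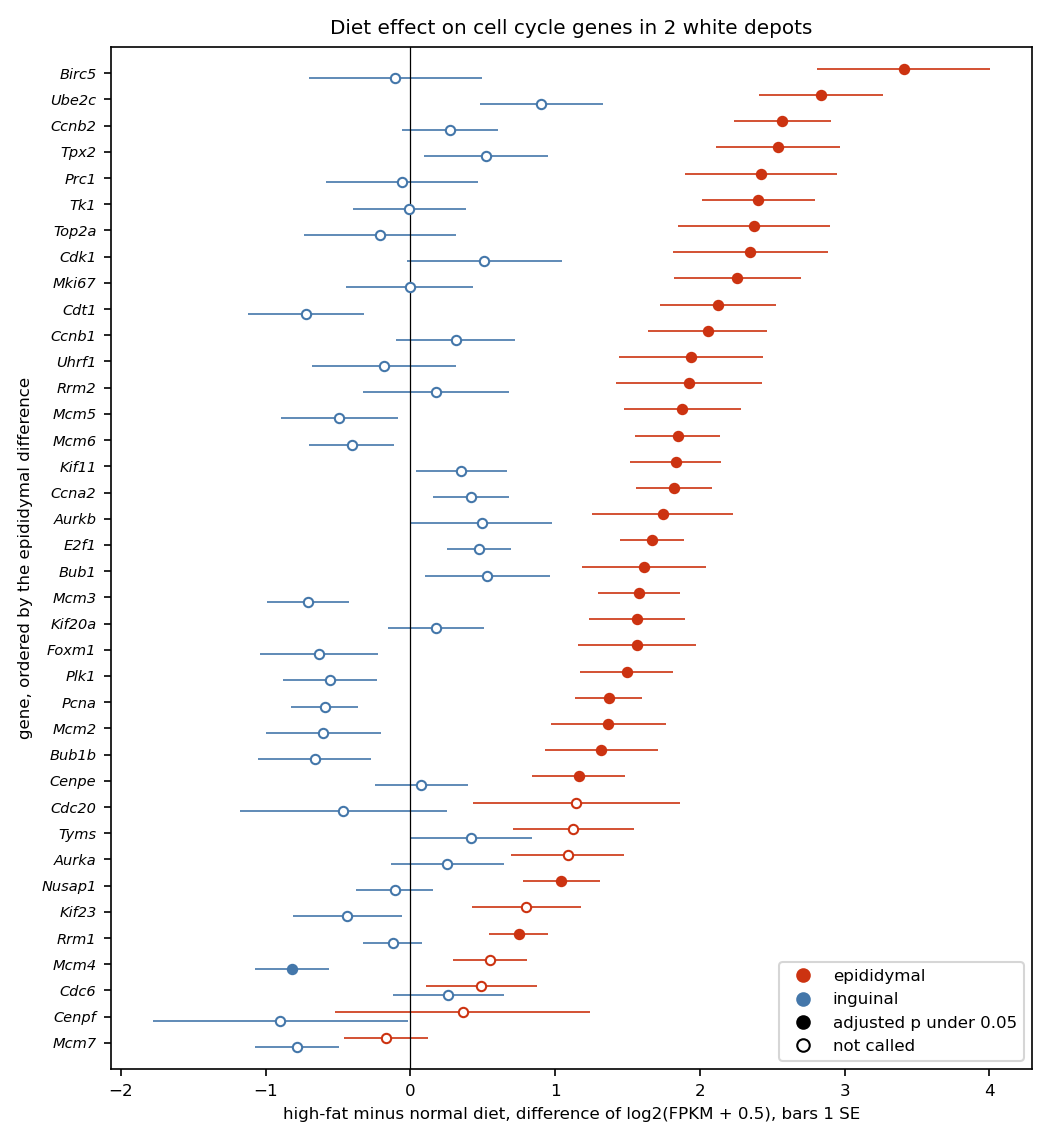
Points are the log2 difference of each gene between high-fat and normal diet (horizontal axis, with bars of 1 SE), epididymal in red and inguinal in blue, with genes in order of the epididymal difference; filled points have an adjusted p under 0.05. The red points run from -0.17 for Mcm7 to 3.41 for Birc5, and the blue points lie around 0 with Mcm4 as the 1 filled point.

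Beyond the 38, lists of related genes were counted the same way. A gene could enter through its high group alone, so the number tested favours genes that rose. Of 47 tested of 52 other mitosis genes, 28 rose and none fell (median log2 1.27), among them Spc25, a subunit of the NDC80 kinetochore complex (log2 2.35), and Kif22, a chromosome-arm motor (log2 1.95). Of 31 tested of 33 other replication genes, 10 rose, including Gmnn and Asf1b (log2 2.01 each), and 1 fell, Pola2 of the primase complex (log2 -0.79). Gmnn encodes geminin, the inhibitor of CDT1, and Asf1b a histone chaperone. Both genes were thus called in the same direction as Cdt1 and the helicase genes.

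The G1 genes and the inhibitors did not move as one. Of 9 G1 cyclin and kinase genes 2 were called, both higher: Ccne1, cyclin E1, at log2 1.75 and Ccnd2, cyclin D2, at log2 1.20. Ccnd1 measured 14.9, 15.8 and 8.02 FPKM on the high-fat diet against 9.21, 10.1 and 6.66 and was not called (log2 0.51, adjusted p = 0.189). Of 7 kinase inhibitor genes 2 rose and 2 fell. Cdkn1a, which encodes p21, measured 62.2, 59.0 and 57.0 FPKM against 7.93, 25.9 and 5.77 (log2 2.42, adjusted p = 0.0079), and Cdkn2b, p15, rose by a log2 of 0.90. Cdkn1c, p57, went from 19.3, 33.1 and 17.0 FPKM to 3.10, 2.92 and 3.02 (log2 -2.69, adjusted p = 0.000545), and Cdkn1b, p27, from 15, 13.1 and 13.7 FPKM to 6.53, 5.06 and 4.75 (log2 -1.29, adjusted p = 0.00595). Of 17 genes of the RB, E2F and MuvB families, E2f8, a late S phase repressor, rose (log2 1.39) and Tfdp2, an E2F partner, fell (log2 -0.78).

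Markers of other cell types moved in the same comparison. The summed FPKM of 12 macrophage markers was 2146, 2131 and 1208 in the epididymal high-fat libraries against 545, 975 and 474 on the normal diet, with 5 of 12 called higher and 1 lower, and all 12 above 0 in every white library. Among them Adgre1, the F4/80 antigen, measured 82.5, 83.5 and 45.3 FPKM against 10.6, 18.3 and 7.10. Csf1r, the receptor for the macrophage growth factor CSF1, measured 71.0, 77.4 and 43.9 FPKM against 29.2, 48.6 and 19.0 and was not called (adjusted p = 0.138). All 7 markers of lipid-laden macrophages rose, from sums of 52.9, 55.8 and 43.6 FPKM to 1232, 1177 and 712. The order of the 3 high-fat libraries was not the same: the cell cycle sum was highest in replicate 1, the macrophage sum was close to equal in replicates 0 and 1, and both were lowest in replicate 2.

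Expressed per 100 FPKM of the 12 macrophage markers, the cell cycle sum was 11.9, 14.5 and 16.9 FPKM in epididymal high-fat adipocytes and 11.5, 8.84 and 19.0 FPKM on the normal diet, so the 2 diets overlapped on this ratio. The outcome depends on the list chosen. Sums of the lipid-laden macrophage markers rose more steeply than the cell cycle sums, from 43.6 to 55.8 FPKM up to 712 to 1232 FPKM. Neutrophil and plasma cell sums were also higher on the high-fat diet without overlap, at 54.2, 61.6 and 62.4 FPKM against 14.7, 22.5 and 4.39 over 5 neutrophil markers and at 37.1, 35.7 and 29.2 FPKM against 11.7, 13.6 and 11.8 over 4 plasma cell markers. In each list 1 gene was called higher, S100a8 and Sdc1, and in the plasma cell list Jchain was called lower. Neither list rose as a whole. Its median log2(FPKM + 0.5), centred on the white libraries, overlapped between the diets. This median was -0.19, 0.13 and -0.19 against -0.18, 0.37 and -0.33 for the neutrophil markers. For the plasma cell markers it was -0.12, -0.84 and -0.84 against -0.38, 0.53 and 0.18. Endothelial markers fell in 11 of 12 cases, with sums of 54.3, 99.3 and 93.5 FPKM against 574, 672 and 534. Pecam1, an endothelial adhesion protein, measured 7.50, 14.3 and 12.2 FPKM against 70.3, 89.1 and 65.4, and Cdh5, the endothelial cadherin, 8.12, 20.9 and 19.1 against 113, 130 and 103. Fibroblast and progenitor markers fell in 5 of 9 cases, with sums of 213 to 296 FPKM against 676 to 1122. Pdgfra, the progenitor receptor, was at 0.784, 1.69 and 0.939 FPKM against 6.56, 12.4 and 5.62. B cell sums were at most 4.83 FPKM and T cell sums at most 2.69 FPKM in the high-fat libraries. The erythroid markers fell in all 5 tested cases. The share of mitochondrial mRNAs was lower on the high-fat diet, at 37.0%, 26.9% and 27.9% against 58.7%, 40.3% and 66.7%, and the summed FPKM of 7 immediate early genes, which respond quickly to cell stress and tissue handling, was higher, at 1469, 1076 and 1040 against 363, 600 and 224, with 5 of 7 called. Neither overlapped between the diets. The part of any of these cell types and measures in the cell cycle values was not tested.

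**Figure D3:**
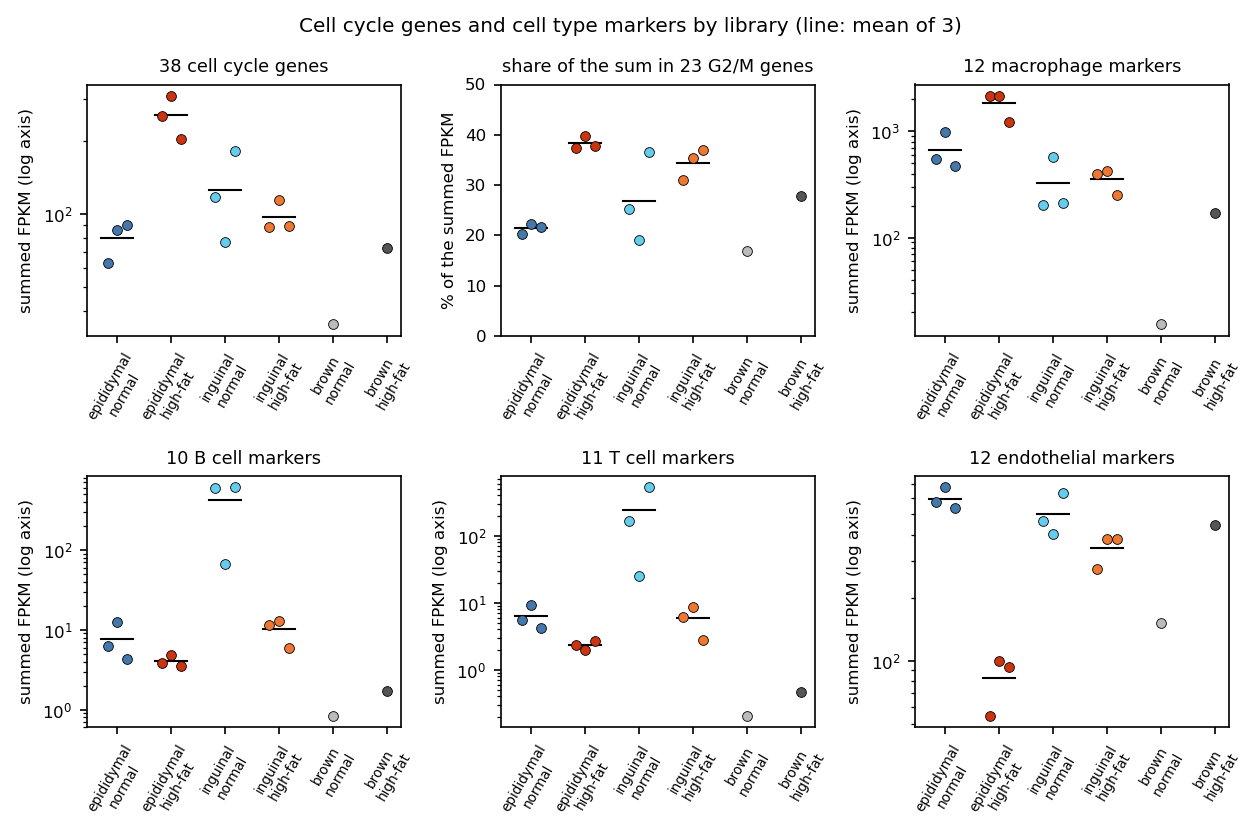
Points are single libraries and lines are means of 3, for the summed FPKM (log axes) of the 38 genes and of 4 marker lists, and for the percentage of the cell cycle sum held by the 23 G2 and mitosis genes (linear axis). Epididymal high-fat libraries are highest for the cell cycle and macrophage sums and lowest of the white groups for the endothelial sum, while the B and T cell sums are highest in inguinal normal-diet libraries.

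The promoters of the genes are shown next because so many members moved together in epididymal adipocytes. A RefSeq promoter on GRCm38.p6, the reference form of mm10, was matched by symbol for 32 of the 38 genes. The letters of 3 motifs were searched on both strands in the 250 bases before the first listed start. They were the NF-Y box (CCAAT), the CHR (TTTGAA or TTCGAA) and an E2F site (TTT, then 2 bases that are each C or G, then CGC); no searched word contains another, though neighbouring matches can overlap, as the 2 E2F matches on opposite strands do at the start of the longest capital run of Mcm6. In the sequences below, each the 150 bases before the start and written 5′ to 3′ in the direction of the gene, capitals mark any match on either strand, so ATTGG and TTCAAA are the reversed NF-Y box and CHR. They show the promoters of 6 mitotic genes that rose in epididymal adipocytes, followed by 3 replication genes that rose, for contrast in motif content. The start used for Mki67, Mcm5 and Top2a lies inside the annotated gene span, so part of each stretch is within the gene.
Cdk1 (chr10:69352913-69353062, minus strand): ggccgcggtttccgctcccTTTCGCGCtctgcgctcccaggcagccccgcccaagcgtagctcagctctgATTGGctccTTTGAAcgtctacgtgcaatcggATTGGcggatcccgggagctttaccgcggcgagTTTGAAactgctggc
Ccnb2 (chr9:70421555-70421704, minus strand): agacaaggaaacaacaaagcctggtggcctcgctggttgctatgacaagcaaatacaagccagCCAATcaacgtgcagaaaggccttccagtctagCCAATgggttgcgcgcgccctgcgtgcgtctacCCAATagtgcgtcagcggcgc
Ube2c (chr2:164769779-164769928, plus strand): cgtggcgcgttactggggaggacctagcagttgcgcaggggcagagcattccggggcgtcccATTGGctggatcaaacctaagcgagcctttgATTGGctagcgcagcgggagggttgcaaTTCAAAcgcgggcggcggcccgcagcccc
Top2a (chr11:99024190-99024339, minus strand): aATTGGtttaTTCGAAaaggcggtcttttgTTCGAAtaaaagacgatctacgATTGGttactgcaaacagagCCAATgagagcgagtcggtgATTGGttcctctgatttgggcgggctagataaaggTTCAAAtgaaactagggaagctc
Mki67 (chr7:135716380-135716529, minus strand): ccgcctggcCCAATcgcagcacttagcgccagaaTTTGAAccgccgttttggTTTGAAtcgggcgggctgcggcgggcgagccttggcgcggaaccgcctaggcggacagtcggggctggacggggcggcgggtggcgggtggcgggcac
Kif11 (chr19:37376232-37376381, plus strand): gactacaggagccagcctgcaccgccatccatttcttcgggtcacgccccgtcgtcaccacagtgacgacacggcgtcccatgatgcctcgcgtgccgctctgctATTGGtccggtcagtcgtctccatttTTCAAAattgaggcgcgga
Mcm6 (chr1:128359706-128359855, minus strand): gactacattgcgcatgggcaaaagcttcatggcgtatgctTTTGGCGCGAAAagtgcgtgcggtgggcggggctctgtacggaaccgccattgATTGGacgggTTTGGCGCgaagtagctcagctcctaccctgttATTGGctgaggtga
Mcm5 (chr8:75109359-75109508, plus strand): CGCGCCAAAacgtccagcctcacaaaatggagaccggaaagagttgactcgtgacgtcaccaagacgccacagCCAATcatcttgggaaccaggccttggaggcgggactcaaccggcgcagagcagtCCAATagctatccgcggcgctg
Pcna (chr2:132253181-132253330, minus strand): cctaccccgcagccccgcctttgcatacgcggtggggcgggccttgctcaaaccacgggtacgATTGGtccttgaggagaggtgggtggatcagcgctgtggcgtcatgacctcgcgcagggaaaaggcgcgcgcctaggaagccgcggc

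The NF-Y box was the most frequent of the 3 motifs. In the 250 bases before the start it was present in 25 of the 32 promoters (78.1%) and in 34.5% of all 27025 genes with a promoter in the table. At least 2 boxes were present in 15 of 32 (46.9%), against 10.5% of all genes. The boxes of Ccnb2 lay 33 bases apart in the same direction, and those of Ccnb1 and Aurka 32 bases apart. Cdk1 had same-strand neighbours 32 and 128 bases apart, and Ube2c had neighbours 31 and 42 bases apart on one strand and 31 and 95 on the other. Other G2 and mitosis genes had wider spacing, at 45 bases in Cdc20, 47 in Mki67, 61 in Cenpf and 38 to 51 in Top2a. Among S phase genes, same-strand boxes lay 40 bases apart in Mcm3, 43 in Mcm6, 46 in Mcm7 and Rrm1 and 55 in Mcm5.

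The other motifs were split by phase. E2F letters were found in 4 of 13 S phase promoters (30.8%), in 1 of 18 promoters of G2 and mitosis genes (5.56%, that of Cdk1) and in 1.91% of all genes. CHR letters were found in 8 of 18 promoters of G2 and mitosis genes (44.4%), in 2 of 13 S phase promoters (15.4%) and in 17.4% of all genes. When the 50 bases after the start were included, CHR letters were in 14 of 18 promoters of G2 and mitosis genes (77.8%) and in 34 of 44 promoters of the other mitosis genes (77.3%), against 19.4% of all genes. These counts describe the letters alone and do not show that a factor was bound. Pcna, the gene of the list with the highest mean in each white group, had 1 NF-Y box and no CHR or E2F letters in the printed window.

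**Figure D4:**
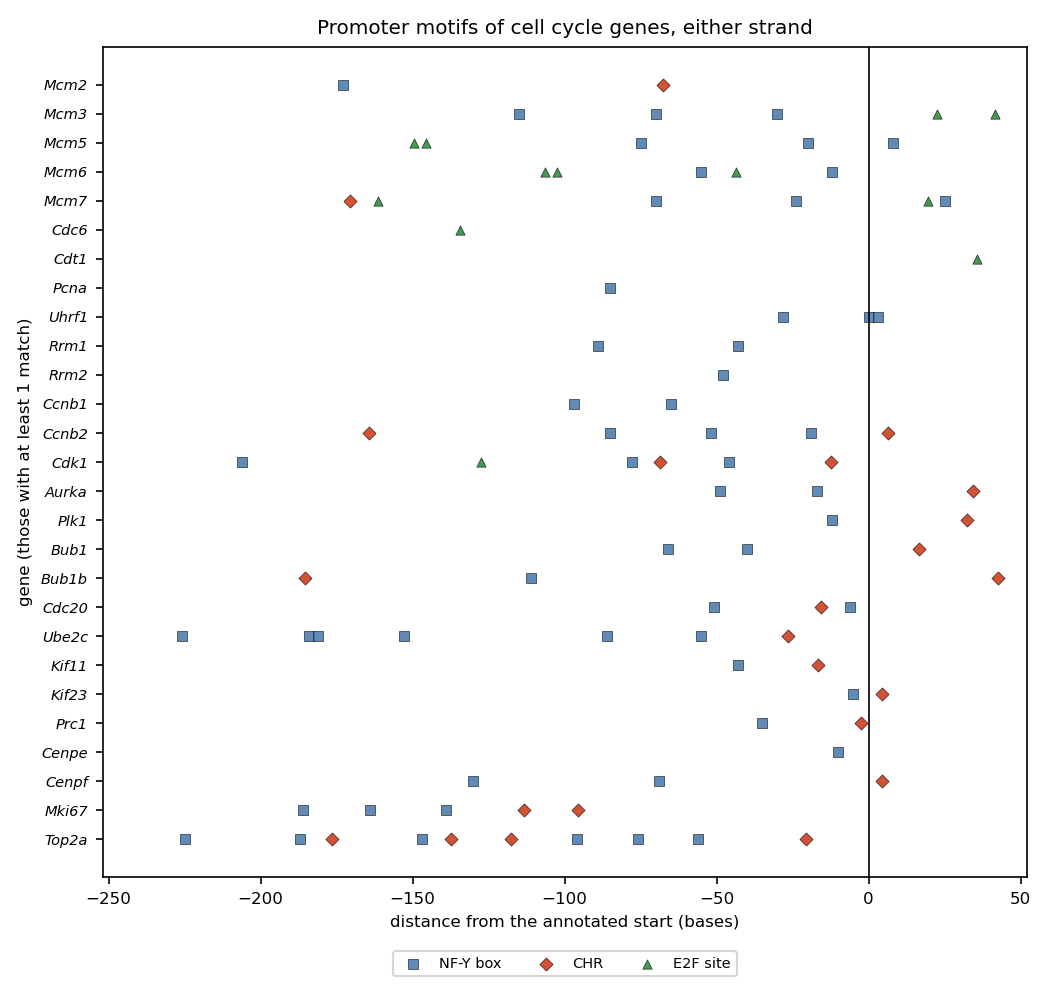
Symbols mark the centre of each match to the NF-Y box (squares), the CHR (diamonds) and the E2F site (triangles) by distance in bases from the annotated start (horizontal axis), 1 gene per row for the genes with at least 1 match. CHR matches of G2 and mitosis genes lie on both sides of the start, NF-Y boxes almost all lie before it, and E2F matches are mostly in MCM genes.

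In inguinal adipocytes the same diet gave almost no calls among the 38 genes. None was higher and 1, Mcm4, was lower, where 9.3% of all genes tested were called higher and 10.2% lower. The median log2 difference was -0.08, against -0.01 for all genes. At an unadjusted p under 0.05 there were 4 genes. Groups did not overlap for 2 genes that were higher and 4 that were lower, shares to be read against 15.8% and 17.3% of all genes. Mcm4 measured 4.04, 3.29 and 3.88 FPKM on the high-fat diet and 6.85, 4.66 and 10.4 on the normal diet (log2 -0.82 ± 0.25, adjusted p = 0.0421), and its adjusted p rose above 0.05, to at most 0.132, in 11 of the 12 fits that left out 1 white library, all but that without inguinal normal-diet replicate 1. By phase, 11 of 14 S phase genes had a negative difference, with a median log2 of -0.45, and the 23 G2 and mitosis genes were divided, with 12 positive and a median of 0.07.

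The inguinal comparison turned on 2 normal-diet libraries. Replicate 2 of that group was the highest of its 3 for 30 of the 38 genes, and replicate 1 was the lowest for 29. Birc5 measured 0.932, 1.36 and 8.76 FPKM in the 3 normal-diet libraries and 1.60, 2.99 and 2.21 in the high-fat ones. Cdc20 measured 1.47, 0.0404 and 7.27 against 0.485, 1.74 and 0.929, and Cenpf measured 0.193, 0.151 and 5.84 against 0.140, 0.156 and 0.552. In all 3 genes normal-diet replicate 2 alone was high. Without replicate 1, 6 genes were lower (Mcm2, Mcm3, Mcm4, Cdt1, Pcna and Foxm1). In that fit 2303 of all 14959 genes were called lower, a share close to that of the members. Without replicate 2, 1 gene was higher (Tpx2), where 978 of all genes were called higher. With replicates 0 and 2 both left out, which leaves 1 normal-diet library assumed to vary like the other groups, the median log2 was 0.39, against -0.05 for all genes.

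Lymphocyte markers separated the same libraries. In the normal-diet libraries 0, 1 and 2, Cd79a, part of the B cell receptor, measured 166, 19.1 and 178 FPKM, and Cd3e, part of the T cell receptor complex, 30.3, 3.58 and 61.2. On the high-fat diet Cd79a was at most 2.78 FPKM and Cd3e at most 0.892 FPKM. All 10 B cell markers and all 10 tested of 11 T cell markers fell with the diet. The T cell sum was 166, 24.6 and 525 FPKM in replicates 0, 1 and 2, so the library highest for the cell cycle genes was also the highest for T cell markers, while the B cell sums of replicates 0 and 2 were close. The macrophage sums were 202, 568 and 211 FPKM on the normal diet and 395, 418 and 250 on the high-fat diet and overlapped. The part of lymphocytes in these cell cycle values was not tested.

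Related lists in inguinal adipocytes, where 9.3% of all genes were called higher and 10.2% lower, were counted as well. Of 47 other mitosis genes tested 2 rose, Spc25 (log2 2.17) and Zwint (log2 0.66), both of the kinetochore, and 1 fell, the condensin gene Smc4. Of 31 other replication genes tested none rose and 2 fell, Pold1, the catalytic subunit of polymerase delta (log2 -1.98), and Dnmt1, the maintenance methyltransferase (log2 -0.94). Cdk6 fell (log2 -1.27), the 1 call among 9 G1 genes. Among the inhibitors, Cdkn1b and Cdkn1c fell as they had in epididymal adipocytes (log2 -1.28 and -1.84), and Cdkn2b rose (log2 1.39). Cdkn1b measured 13.5, 8.74 and 8.67 FPKM on the high-fat diet against 30.2, 15.9 and 33.4. Cdkn1a measured 27.1, 38.4 and 24.3 FPKM against 7.92, 27.8 and 6.94 and was not called (log2 1.30, adjusted p = 0.11). Ccnd1 and Ccnd2 were not called (log2 0.74 and 0.42), and Rb1, the retinoblastoma gene, rose by a log2 of 0.69. None of the 7 inhibitor genes was called in the test of the difference between the depots.

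The test of the difference between the 2 diet effects called 14 of the 38 genes, all with the more positive diet effect in epididymal adipocytes, where 4.8% of all genes were called in this direction and 2.42% in the other. All 38 differences were positive, with a median log2 of 1.79. By role the calls covered 6 of 10 licensing and replication genes, 1 of 4 nucleotide genes, both transcription factors, 2 of 4 cyclin and kinase genes, 2 of 6 mitotic kinase and checkpoint genes and 1 of 2 chromosome genes, and none of the 8 spindle genes. Cdt1 differed by a log2 of 2.84 ± 0.57 (adjusted p = 0.0134): it measured 2.18, 1.77 and 1.67 FPKM in inguinal high-fat and 3.72, 1.43 and 6.77 in inguinal normal-diet libraries, beside its rise in epididymal adipocytes. Pcna differed by 1.96 ± 0.33 (adjusted p = 0.00705), with inguinal values of 18.8, 13.1 and 12.8 FPKM against 25.0, 16.3 and 27.3. Mcm3 and Mcm6 differed by 2.29 ± 0.40 and 2.25 ± 0.42 (adjusted p = 0.00822 and 0.0102).

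Only these 4 genes, Mcm3, Mcm6, Cdt1 and Pcna, were called whichever single white library was left out. The number of calls ran from 4 without epididymal high-fat replicate 1 to 28 without inguinal normal-diet replicate 1. With inguinal normal-diet replicates 0 and 2 both left out, the median log2 was 1.11, against 0.15 for all genes. With scaling to nuclear genes the number of calls was 0, at a median of 1.14, where 149 of all 15767 genes were called in this direction.

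On the normal diet the 2 white depots did not differ in any of the 38 genes by limma at an adjusted p under 0.05, and 11 differed at an unadjusted p under 0.05. Among all genes 2.36% were called higher in epididymal adipocytes and 4.15% lower. The median log2 difference was -0.54, and 34 of the 38 genes were lower in epididymal adipocytes. Epididymal values lay below all inguinal values for 9 genes, against 10.3% of all genes. Foxm1 measured 0.272, 0.607 and 0.288 FPKM in epididymal and 1.97, 0.717 and 3.06 in inguinal adipocytes (log2 -1.33 ± 0.41). Cdt1 measured 0.769, 0.974 and 1.42 FPKM against 3.72, 1.43 and 6.77 (log2 -1.35 ± 0.40). For both, inguinal replicates 0 and 2 were the high ones. Without inguinal replicate 1, 13 genes were lower in epididymal adipocytes, where 1612 of all 14959 genes were called lower. With replicates 0 and 2 left out the median was 0.04. All 10 B cell markers were called lower in epididymal adipocytes here, and 9 of 10 tested T cell markers. With scaling to nuclear genes, 22 genes were called lower at a median of -1.5. That scaling moved the median of all genes to -1.19, with 5954 of 15767 called lower.

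On the high-fat diet 16 of the 38 genes were higher in epididymal than in inguinal adipocytes and none was lower, where 7.08% of all genes were called higher and 3.53% lower. All 38 differences were positive on the deposited scale, with a median log2 of 1.26, and for 33 genes all epididymal values lay above all inguinal values, against 23.2% of all genes. This comparison shares the epididymal high-fat libraries with the epididymal diet comparison, so the 2 are not independent. E2f1 measured 8.62, 8.53 and 8.23 FPKM in epididymal and 2.73, 2.91 and 3.47 in inguinal adipocytes (log2 1.35 ± 0.22, adjusted p = 0.0029). Pcna measured 55.4, 59.8 and 42.0 FPKM against 18.8, 13.1 and 12.8 (log2 1.79 ± 0.23, adjusted p = 0.00103). Both groups are narrow and far apart. Ccnb1 measured 3.14, 3.18 and 2.31 FPKM against 0.614, 0.519 and 0.121 (log2 1.91 ± 0.41, adjusted p = 0.0117), and Plk1 measured 1.96, 2.27 and 1.96 against 0.440, 0.471 and 0.30 (log2 1.51 ± 0.32, adjusted p = 0.0114).

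The other 12 genes called were Mcm3 (log2 1.29), Mcm5 (1.59), Mcm6 (1.35), Cdt1 (1.5), Tk1 (1.40), Ccna2 (1.26), Ccnb2 (1.42), Bub1b (1.58), Kif11 (1.31), Kif20a (1.26), Nusap1 (0.91) and Mki67 (1.58), each a log2 difference. Kif20a passed the expression filter only with its epididymal high-fat values, so its call is not independent of the filter. Same-numbered libraries of these 2 groups deviated together, and with the replicate number as a block 13 of the 16 were called, while Tk1, Nusap1 and Mki67 were not (adjusted p = 0.0551, 0.0616 and 0.0594). Pcna and E2f1 were the only genes called whichever single library was left out. The calls numbered 2 without epididymal high-fat replicate 1, 3 without inguinal high-fat replicate 2, 4 without epididymal high-fat replicate 0 and 7 without inguinal high-fat replicate 0. The direction depended on the scaling. Scaled to nuclear protein-coding genes 6 were higher at a median of 1.07, where 654 of all 15029 genes were higher. Scaled to nuclear genes none was higher and 4 were lower, at a median of -0.38. That scaling shifted all genes, with 11022 of 15767 called lower at a median of -1.62, so the members stayed above the median of all genes.

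Macrophage markers differed in the same comparison, with 8 of 12 called higher in epididymal adipocytes and all 7 lipid-laden macrophage markers called higher. Adgre1 measured 82.5, 83.5 and 45.3 FPKM in epididymal against 12.5, 13.7 and 10.7 in inguinal adipocytes. The cell cycle sum per 100 FPKM of macrophage markers went the other way, at 11.9, 14.5 and 16.9 FPKM in epididymal and 22.5, 27.4 and 35.9 in inguinal high-fat libraries, groups that do not overlap. Mesothelial markers, of the lining of visceral fat, were called higher for 5 of 6 genes, with sums of 6.80, 13.1 and 13.4 FPKM against at most 0.154, and for all 6 on the normal diet. The B and T cell lists had no call here. Endothelial markers were lower in epididymal adipocytes for 11 of 12 genes. Their part in the cell cycle difference was not tested.

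In brown adipocytes the high-fat library held more transcript of 36 of the 38 genes, and less of Mcm4 and Mcm7, with 1 library per diet and no replicate check. Of the 30 genes with at least 0.5 FPKM in either library, 11 were at least 2-fold higher on log2(FPKM + 0.5) and none was 2-fold lower. Among all 13558 genes over the same filter, 13.3% reached 2-fold higher and 1115 genes 2-fold lower. A gene could enter through its high library alone, so the number counted favours genes that differed. Of the 11, only Mcm6 and Pcna reached 0.5 FPKM on the normal diet, and the others entered through the high-fat library alone. The median log2 difference was 0.92, against 0.07 for all genes. Cdk1 was at 2.85 FPKM on the high-fat diet and 0.0780 on the normal diet, Pcna at 20.6 and 7.75, Mcm6 at 3.02 and 0.807, and Ube2c at 4.09 and 1.92. Rrm2 was at 1.99 FPKM on the high-fat diet and listed at 0 on the normal diet, as were Ccnb2, Aurkb, Plk1, Bub1 and Cdc20, which reached at most 0.888 FPKM on the high-fat diet. Most of these values are low, and 6 genes listed at 0 in 1 library can be failed estimates.

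The 2 brown libraries also differed in markers of other cells. The macrophage sum was 170 FPKM on the high-fat diet and 15.3 on the normal diet, the endothelial sum 443 and 151, and Pecam1 55.2 and 18.8. The B cell sum was 1.71 and 0.833 FPKM. The part of these cells in the brown difference was not tested. Scaled to nuclear protein-coding genes, 17 of the 30 genes were at least 2-fold higher, where 2181 of all 13558 genes were. Scaled to nuclear genes, 9 were 2-fold higher and 2 lower, where 796 of all 13558 genes were higher and 6704 lower. The median log2 difference of the members was then 0.23, where the median of all genes was -0.99.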

How the data were processed

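TopHat2 2.0.9, Cuffdiff 2.1.1 and the build mm10 are named by the submitters' processing notes. FPKM is the unit of every deposited value used here, as inferred from Cuffdiff and from the values, and the authors' gene annotation, use of strand and library scaling are not given in the sources used here. Low values showed no steps of whole reads, so the depth of each library is unknown and only replicate spread gives the precision. A gene listed at 0 can be a failed estimate.

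Each file held 38553 Ensembl identifiers, of which 36638 matched a symbol. The test was limma 3.58.1, run under R 4.3.3 with a mean-variance trend, on log2(FPKM + 0.5). The model held 4 group means and no block, which left 8 residual degrees of freedom, and kept genes with at least 0.5 FPKM in 3 of the 12 white libraries. P-values were adjusted over 14959 genes in each of 5 comparisons, and the fit was tested on simulated data. Brown libraries entered no test. The members and lists were chosen with earlier results of these data known. All 38 members are named, and of each related list up to 2 genes each way with the largest called diet effect, plus a preset set of markers, G1 cyclins and Cdkn1a. Some of these markers are not reported here.

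Same-numbered epididymal and inguinal high-fat libraries deviated together from their group means over genes (correlations 0.184, 0.111 and 0.146), so the number was taken to pair them. In the other 3 comparisons of 2 groups at least 1 of the 3 correlations was under 0.1. For the epididymal diet comparison they were 0.180, 0.082 and 0.162, so the limit of 0.1 parted similar values there. What the number marks is not given in the labels. Alternatives were other pseudocounts and filters, TMM, quantile and nuclear scalings, array weights, fits of only the groups compared, a replicate block and left-out libraries. Scaling to nuclear protein-coding genes and the promoter window with 50 bases after the start were added after seeing the data.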

Additional observations from a re-analysis of the deposited data

Results flagged for a closer look

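For 14 of the 38 genes the diet effect in epididymal adipocytes differed from that in inguinal adipocytes in limma's test of the difference itself. The epididymal minus inguinal log2 differences were 2.29 for Mcm3, 1.37 for Mcm4, 2.37 for Mcm5, 2.25 for Mcm6, 2.84 for Cdt1 and 1.96 for Pcna among the replication genes. They were 2.41 for Tk1, 1.20 for E2f1 and 2.19 for Foxm1. Among the cyclin and mitotic genes they were 1.40 for Ccna2, 2.30 for Ccnb2, 2.05 for Plk1, 3.51 for Birc5 and 2.26 for Mki67. Adjusted p-values ran from 0.00705 for Pcna to 0.0469 for Mki67. The inguinal normal-diet group entered every one of these differences, and its replicates 0 and 2 carried the B and T cell markers described above.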

How the results depend on the processing

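The epididymal diet effect had 20 to 31 of the 38 genes higher and none lower with any 1 white library left out, and 10 with scaling to nuclear genes; the other alternatives moved this count by less than 1.5 times. The inguinal diet effect had few calls under every alternative. Its count of higher genes was 0 to 1 with 1 library left out, 1 with quantile normalization, 2 with array weights and 2 with inguinal normal-diet replicates 0 and 2 left out. Its count of lower genes was 0 to 6 with 1 library left out, 0 with no expression filter, nuclear scaling, only the 2 groups compared or those 2 libraries left out, and 2 with TMM factors or array weights. The difference of the diet effects had 4 to 28 genes higher with 1 library left out, 6 with no expression filter, 0 with nuclear scaling, 26 with array weights and 4 with the 2 inguinal libraries left out. On the normal diet the depots had 0 to 13 genes lower in epididymal adipocytes with 1 library left out, 1 with TMM factors or nuclear protein-coding scaling, 22 with nuclear scaling and 3 with array weights. On the high-fat diet the depots had 2 to 21 genes higher with 1 library left out, 10 with a pseudocount of 0.1 or no expression filter, 26 with only the 2 groups compared, 32 with array weights, 25 with the 2 inguinal libraries left out, 6 with nuclear protein-coding scaling, and 0 higher and 4 lower with nuclear scaling. Counts over all 14959 genes moved with the settings too. In the high-fat depot difference 1059 genes were higher in the main fit and 468 without epididymal high-fat replicate 1. There were 1942 with only the 2 groups compared and 2294 with array weights. Under nuclear scaling 11022 of 15767 genes were lower there. A test over more genes raises the adjusted p-values of the unfiltered fit. The cause of the other shifts was not tested.

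Nuclear scaling multiplied the libraries by factors of 0.55 to 3.49, against 0.86 to 1.29 for nuclear protein-coding scaling, and its total is ruled by short features: the largest single feature held 30.5% to 88.0% of all FPKM. Under it the median log2 difference of all genes was 0.10 in the epididymal diet effect, 0.50 in the inguinal one and -0.39 in their difference, against 0.07, -0.01 and 0.07 as deposited. It also moved the median of all genes in the high-fat depot difference to -1.62, from 0.04 as deposited. Log2 values there became -0.43 for Mcm3, -0.073 for Mcm5, -0.42 for Mcm6, -0.13 for Cdt1, -0.052 for Pcna, -0.34 for Tk1, -0.37 for E2f1, -0.39 for Ccna2, -0.088 for Ccnb2 and -0.58 for Nusap1. Mean sums under it were 203 FPKM for epididymal high-fat, 60.7 for epididymal normal-diet, 284 for inguinal high-fat and 253 for inguinal normal-diet adipocytes. The brown sums became 92.4 FPKM (high-fat) and 97.5 FPKM (normal), and 90.4 and 39.7 FPKM under protein-coding scaling. With 1 library left out the epididymal log2 difference of Mcm7 ran from -0.55 to 0.15, positive without normal-diet replicate 2, and that of Cenpf from -0.36 to 0.99, negative without high-fat replicate 1 (-0.36) or normal-diet replicate 0 (-0.063).

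With the replicate number as a block, 31 genes were higher in the epididymal diet effect and 2 lower in the inguinal one (Mcm4 and Mcm7), 12 differed between the diet effects, none differed between depots on the normal diet and 13 were higher in epididymal adipocytes on the high-fat diet. In the other 3 comparisons of 2 groups, correlations of same-numbered libraries ran from 0.0069 to 0.272, and the numbers are not known to pair those samples. Depth is unknown, so no limit from counting can be given for the genes under 0.5 FPKM.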
